A study of Homo sapiens with 2 samples.

Results

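The exons of transcripts that do not code for protein were followed here wherever they lay outside an annotated promoter. A CpG was a member if it was autosomal, was annotated in the deposited table as lying in a noncoding RNA exon with no promoter gene, and had at least 10 reads in both libraries. By annotation 89833 autosomal positions qualified, 80688 of them had enough reads, and 79372 remained after 1316 without whole read counts were set aside. They made up 3.15% of the 2523693 CpG positions of the same depth in the whole table. They fell in 7198 gene entries, of which 3956 held at least 5 CpGs and were summarised as genes. These 3956 genes held 72148 CpGs, or 90.9% of the members, with a median of 12 CpGs and a maximum of 230. The limit of 5 CpGs left out 561 entries with 4 CpGs and took in 452 entries with 5.

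The data are methyl capture bisulfite sequencing of genomic DNA from SH-SY5Y, an established human neuroblastoma cell line. The control cells received DMSO, and the treated cells received Mdivi-1, a small molecule known as an inhibitor of mitochondrial fission that is directed at the dynamin-related GTPase DRP1. Each group had 1 library, and the labels give neither dose nor time. The whole table had median coverages of 30 reads in the control and 37 in Mdivi-1, and the members had means of 38.1 and 47.0 reads.

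CpG methylation is the addition of a methyl group to the cytosine of a CG pair. At the start of a transcript it usually accompanies silence, whereas the bodies of transcribed genes and most repeated or inactive sequence are methylated in ordinary cells. Noncoding exons are a mixed class that includes long noncoding RNAs, small RNAs such as tRNAs and microRNAs, decayed gene copies called pseudogenes, and noncoding transcripts of coding loci. Several of the long noncoding RNAs come from imprinted regions, where some stretches carry methylation on only the maternal or only the paternal copy.

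Sequences of 6 microRNA hairpins show what a member looks like at the level of single bases, since for these genes the measured CpGs lie inside the RNA itself. The hairpins are RefSeq sequences from GRCh38.p14, written 5′ to 3′, and capitals mark the CG pairs whose methylation was measured. Each hairpin was placed on the measured positions by the spacing of its CG pairs, which gave 1 placement in each case.

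MIR126: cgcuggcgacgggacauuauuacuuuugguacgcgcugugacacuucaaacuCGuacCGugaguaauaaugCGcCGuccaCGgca
MIR1181: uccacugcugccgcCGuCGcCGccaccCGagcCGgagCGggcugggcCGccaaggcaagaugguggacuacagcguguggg
MIR4508: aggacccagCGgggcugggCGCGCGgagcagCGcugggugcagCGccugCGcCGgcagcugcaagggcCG
MIR1307: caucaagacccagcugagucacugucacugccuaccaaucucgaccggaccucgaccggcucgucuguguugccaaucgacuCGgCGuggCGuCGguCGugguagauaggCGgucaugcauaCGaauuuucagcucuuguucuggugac
MIR339: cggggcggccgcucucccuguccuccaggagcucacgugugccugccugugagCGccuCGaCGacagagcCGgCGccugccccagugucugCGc
MIR8083: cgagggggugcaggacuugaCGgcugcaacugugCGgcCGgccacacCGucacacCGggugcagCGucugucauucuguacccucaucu

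The first 3 hairpins were nearly free of methylation and the last 3 nearly fully methylated, in both libraries. MIR126, at chr9:139565107-139565135 within a CpG island, had a mean level of 5.83% over 5 CpGs in the control and 1.99% in Mdivi-1. MIR1181, also in a CpG island, had 2.80% and 1.51% over 7 CpGs, and MIR4508, outside islands, had 2.20% and 2.69% over 9 CpGs. MIR1307, in an island shore, stood at 95.8% and 96.0% over 7 CpGs. MIR339, in an island shelf, stood at 94.1% and 98.7% over 6 CpGs, and MIR8083, in a CpG island, at 91.5% and 89.9% over 6 CpGs. Each of these 6 differences was smaller than its error when neighbouring CpGs are taken to share reads, which was largest for MIR126 at 5.56 points and smallest for MIR4508 at 3.42 points.

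Some of the measured CG pairs encode the seed, the bases from position 2 to 8 of the mature microRNA that pair with target messages. Capitals in the next lines mark the seed.

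miR-126-3p: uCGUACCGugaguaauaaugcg
miR-1181: cCGUCGCCgccacccgagccg
miR-1307-3p: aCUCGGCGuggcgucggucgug
miR-339-3p: uGAGCGCCucgacgacagagccg

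The seeds of miR-126-3p, miR-1181 and miR-1307-3p each contain 2 measured CG pairs, and that of miR-339-3p contains 1. The first pair of the miR-126-3p seed had 1 of 23 reads methylated in the control (4.35%, exact 95% interval 0.11 to 21.9%) and 0 of 34 in Mdivi-1. That count allows up to 8.82% when taken as 3 reads of the total, and the exact interval ends at 10.3%. The second had 2 of 21 (9.52%, 1.17 to 30.4%) and 1 of 34 (2.94%, 0.0744 to 15.3%). DNA methylation is not carried into the RNA, so these values describe the gene and not the microRNA.

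Over all 79372 members the mean methylation level was 49.7% in the control and 50.2% in Mdivi-1, a difference of 0.512 percentage points. Differences are given throughout as Mdivi-1 minus control. The counting error of this mean was 0.027 points if every CpG was read independently. It was 0.137 points if all CpGs in a run with gaps of no more than 150 bp shared their reads. With 1 library a group, neither error holds any spread between cultures, and a difference between libraries cannot be told apart from a difference between treatments. The mean was higher in Mdivi-1 on 21 of 22 autosomes, and the chromosome means ran from -0.275 points on chromosome 9 to 0.842 points on chromosome 13. Coding exons away from promoters had a like difference, 63.1% in the control and 0.545 points higher in Mdivi-1 over 326838 CpGs. Noncoding RNA introns stood at 46.2% and were 0.470 points higher over 51157 CpGs.

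The level followed the position relative to CpG islands, the CG-rich stretches found at many gene starts. The 33564 members inside islands, 42.3% of all, had a mean of 38.0% in the control. Shores, the flanks of islands, had 51.5% over 13125 CpGs, and shelves, further out, 56.2% over 7036 CpGs. The 25647 members outside all of these had 62.3%. Coding exons had the same order at higher levels, with 54.4% in islands and 72.9% outside. The difference between the libraries was positive in all 4 classes, at 0.358 points in islands, 0.566 in shores, 0.524 in shelves and 0.683 outside. The island value depended on the weighting and was 0.036 points when reads rather than CpGs were averaged.

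Levels differed more between kinds of RNA than between the 2 libraries. Of the 3956 genes, 1228 were long noncoding RNAs by RefSeq, 1351 pseudogenes and 1223 loci that RefSeq lists as protein-coding. Thus 20644 member CpGs labelled as noncoding exon belong to loci listed as protein-coding. The transcripts behind that label were not checked. Pseudogene CpGs had a mean of 66.9% in the control, against 41.2% for long noncoding RNAs and 38.8% for protein-coding loci. Inside CpG islands the gap was wider: 68.0% for pseudogenes, 32.7% for long noncoding RNAs and 15.4% for protein-coding loci. Outside islands, shores and shelves the order of the last pair turned, with 66.9% for pseudogenes, 49.8% for long noncoding RNAs and 68.8% for protein-coding loci. Pseudogenes differed little by position, since their island and outside values lay close together. Reads of near-identical copies may be shared between a pseudogene and its parent gene, and no source used here gives how such reads were placed.

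**Figure D1:**
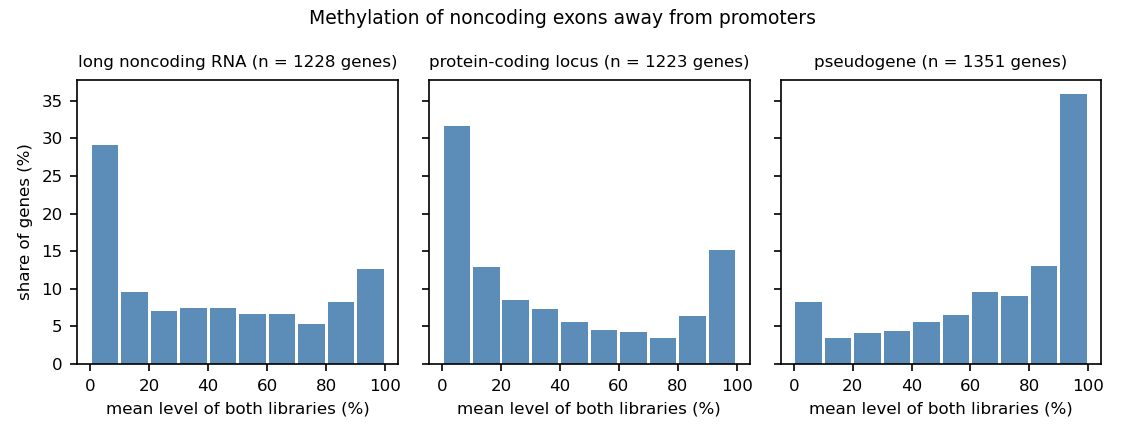
Share of genes (vertical axis, percent of the genes of that class) by mean methylation level of both libraries (horizontal axis, percent, in steps of 10) for long noncoding RNAs, protein-coding loci and pseudogenes with 5 or more member CpGs. Long noncoding RNAs and protein-coding loci peak under 10%, and pseudogenes at 90% or more.

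Single genes spread over the whole range, with peaks at both ends. Of the 3956 genes, 927 had a level under 10% and 861 a level of 90% or more, with 1471 between 20 and 80%. Of the long noncoding RNAs, 29.1% lay under 10% and 12.7% at 90% or more. Of the pseudogenes, 8.29% lay under 10% and 36.0% at 90% or more, as the plot of genes by level shows.

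Exons were also set beside other parts of their own genes, which the choice of members did not use. In 683 genes with 5 or more CpGs in both exons and introns, the median control level was 34.2% in exons and 36.6% in introns, and the exons were the higher in 324. Across these genes the exon and intron levels had a Pearson correlation of 0.506, while their differences between the libraries had one of -0.007. In 2729 genes with a measured promoter, the exon median was 38.1% and the promoter median 25.5%. The median difference within genes was smaller, 1.92 points, with the exons higher in 1491 and lower in 1238. The 951 long noncoding RNAs had medians of 34.2% and 31.7%, with the exons higher in 449 and lower in 502. The 571 pseudogenes had 71.7% and 56.7%, and the 1156 protein-coding loci 25.6% and 15.6%. Among the 2729, 192 genes had exons above 50% and a promoter under 10%, and 61 had the opposite pattern. These correlations run across genes, which are not independent and share 2 libraries.

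No gene can be tested with 1 library a group, so genes were listed by a rule of size: a mean difference of at least 10 points, with at least 80% of the CpGs differing in that direction. Of 3956 genes, 23 met it with a higher level in Mdivi-1 (0.581%) and 12 with a lower level (0.303%), 0.885% in all. Over all annotated features away from promoters, counted per gene and region, 0.419% were higher and 0.215% lower. Their share in all was 0.634%, that of coding exons 0.513% and that of noncoding introns 0.439%. Of the 35 genes, 34 had a level between 20 and 80%, where the share was 2.31%, against 1.26% for all features and 1.09% for coding exons at that level. The median gene held 12 CpGs here against 19 for coding exons, and how far that moves the share was not tested. Only 6 genes (0.152%) differed by more than the 95% interval that their shared-read error gives, against 0.23% of all features and 0.105% of coding exons. Over all genes, 2273 were higher in Mdivi-1 and 1678 lower, with a median difference of 0.309 points (57.5% higher, against 61.6% of all features and 62.1% of coding exons).

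**Figure D2:**
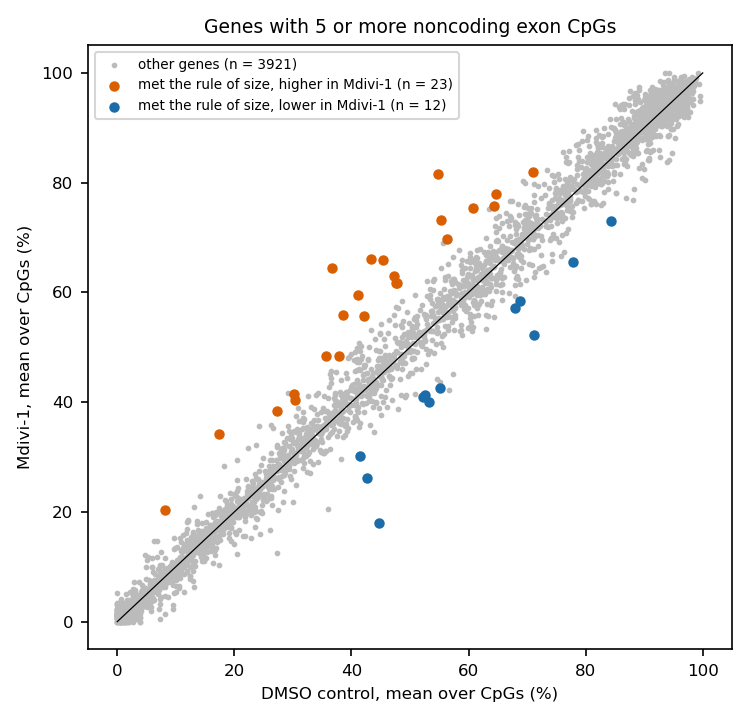
Mean methylation level of each of 3956 genes in the DMSO control (horizontal axis, percent) and in Mdivi-1 (vertical axis, percent), 1 point a gene, with the line of equality. The 23 genes that met the rule of size with a higher level and the 12 with a lower level are coloured, and they lie mainly between 20 and 80%.

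The largest gain was in SNHG26, a long noncoding RNA that hosts small nucleolar RNAs. Its 6 CpGs span 30 bp inside a CpG island, at chr7:22893863-22893892, and had a mean of 36.7% in the control and 64.5% in Mdivi-1, a difference of 27.8 points. All 6 were higher in Mdivi-1, but the reads were few, with means of 14.5 and 12.8 a CpG. The lowest control CpG had 3 of 13 reads methylated (23.1%, exact 95% interval 5.04 to 53.8%) and 9 of 13 in Mdivi-1 (69.2%, 38.6 to 90.9%). If the 6 CpGs shared all their reads, the error was 19.2 points, so the 95% interval of the difference included 0. The surroundings, meaning all other measured CpGs within 1 kb of any of the gene's CpGs, held 77 CpGs at 33.5% and 33.6%. Lack of a promoter gene in the annotation did not place every member far from a transcript start. In the surroundings of AKR1E2, 36 of 37 CpGs were annotated as upstream of a gene, and in those of AGBL4 35 of 52. All 34 around COL21A1 were intronic.

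MTHFS, the locus of an enzyme of folate metabolism, had the next gain, with 54.8% in the control and 81.6% in Mdivi-1 over 11 CpGs at chr15:80189152-80189336. All 11 were higher, with means of 19.8 and 20 reads and a shared-read error of 14.8 points. The widest single gap was 7 of 19 reads (36.8%, exact 95% interval 16.3 to 61.6%) against 17 of 19 (89.5%, 66.9 to 98.7%). The surroundings were higher too, at 62.5% and 73.0% over 46 CpGs, of which 39 were higher. Over the 4 CpGs with 20 reads in both libraries the difference was 15.2 points.

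AKR1E2, the locus of an aldo-keto reductase, was better covered, with means of 28.0 and 34.0 reads over 13 CpGs. It had 45.4% and 65.9%, a difference of 20.4 points with a shared-read error of 9.19 points. Its 10 island CpGs at chr10:4868399-4868469 stood at 31.4% and 55.6%, and the other 3, far downstream, at 92.1% and 100%. The last values rest on means of 12.3 and 17.0 reads.

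The other large gains were mostly short and thinly read. CEP57L1P1, a pseudogene, had 43.4% and 66.1% over 5 CpGs, and LOC646801, also a pseudogene, 41.2% and 59.5% over 7. The long noncoding RNA LOC401312 had 55.3% and 73.3% over 5 CpGs, with a mean of only 10.4 control reads. RPS4Y1P1, a ribosomal protein pseudogene on chromosome 16, had 47.2% and 62.9% over 6 CpGs. Only 1 of those 6 CpGs had 20 reads in both libraries, and there the difference was 2.84 points. The entry shared by CDH18-AS1 and NUP50P3 had 60.8% and 75.3% over 10 CpGs, of which 8 were higher and 2 lower.

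TRS-GCT6-1, a serine tRNA gene at chr6:26305719-26305775, had 38.6% and 55.9% over 6 CpGs, all higher. The difference was 17.3 points with a shared-read error of 13.2 points. MIR99AHG, the host gene of a cluster that includes miR-99a, had 17.3% and 34.1% over 7 CpGs, 6 of them higher. Its shared-read error was 9.39 points. Its CpGs fell in 2 places, 4 with 5.72% and 20.9% and 3 with 32.8% and 51.8%. The 13 CpGs around it were lower in Mdivi-1, with 47.5% and 43.0%. A single CpG of MIR99AHG had 20 reads in both libraries, with a difference of 26.7 points.

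STOM, the locus of the membrane protein stomatin, showed the largest loss. Its 8 CpGs at chr9:124132473-124132521, which span 49 bp inside a CpG island, stood at 44.7% in the control and 18.0% in Mdivi-1, 26.7 points lower. All 8 were lower, on means of 13.5 and 17.6 reads, and the shared-read error was 16.8 points. At chr9:124132494 the control had 7 of 13 reads methylated (53.8%, exact 95% interval 25.1 to 80.8%) and Mdivi-1 3 of 19 (15.8%, 3.38 to 39.6%). The 41 CpGs around it were lower by less, with 47.4% and 42.5%.

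RDM1, the locus of a RAD52 motif protein, had the deepest coverage among the large losses, with means of 54.2 and 56.2 reads. Over 6 CpGs it stood at 71.2% and 52.2%, 19 points lower with a shared-read error of 8.06 points, and every CpG was lower. The 5 CpGs at chr17:34245112-34245141 had 82.2% and 61.3%. The widest gap there was 32 of 40 reads (80%, exact 95% interval 64.4 to 90.9%) against 21 of 44 (47.7%, 32.5 to 63.3%). The 6 CpGs fell in 2 places, and the surroundings of both together had 43.7% and 45.1% over 50 CpGs. These were not split by place, so whether the CpGs near those 5 shared the loss was not tested.

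AGBL4, the locus of a carboxypeptidase that trims glutamate chains from tubulin, was lower at all 20 of its CpGs. It had 42.6% and 26.3%, and the 19 CpGs of a CpG island at chr1:50489490-50489623 had 44.7% and 27.6%. Means of 25.6 and 23.4 reads gave a shared-read error of 13.1 points against a difference of -16.4 points. Its surroundings were also lower, at 53.2% and 47.4% over 52 CpGs, 38 of them lower.

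Among the rest of the largest losses, the coding loci KLK13 (a kallikrein protease), COL21A1 (a collagen) and PAX5 (a transcription factor of B cells) had differences of -11.3 points each. COL21A1 was lower at all 14 CpGs, and all 14 had 20 reads in both libraries, but its shared-read error was 12.5 points. LOC100130207 stood at 53.2% and 39.9% over 10 CpGs and FAM3D-AS1 at 55.1% and 42.6% over 5. CTBP2P4, a pseudogene, had 77.8% and 65.6% over 7, and -19.7 points over the 3 CpGs with 20 reads. LINC01122 had 84.4% and 73.0% over 5 CpGs in 3 places, 4 of them lower and none higher.

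**Figure D3:**
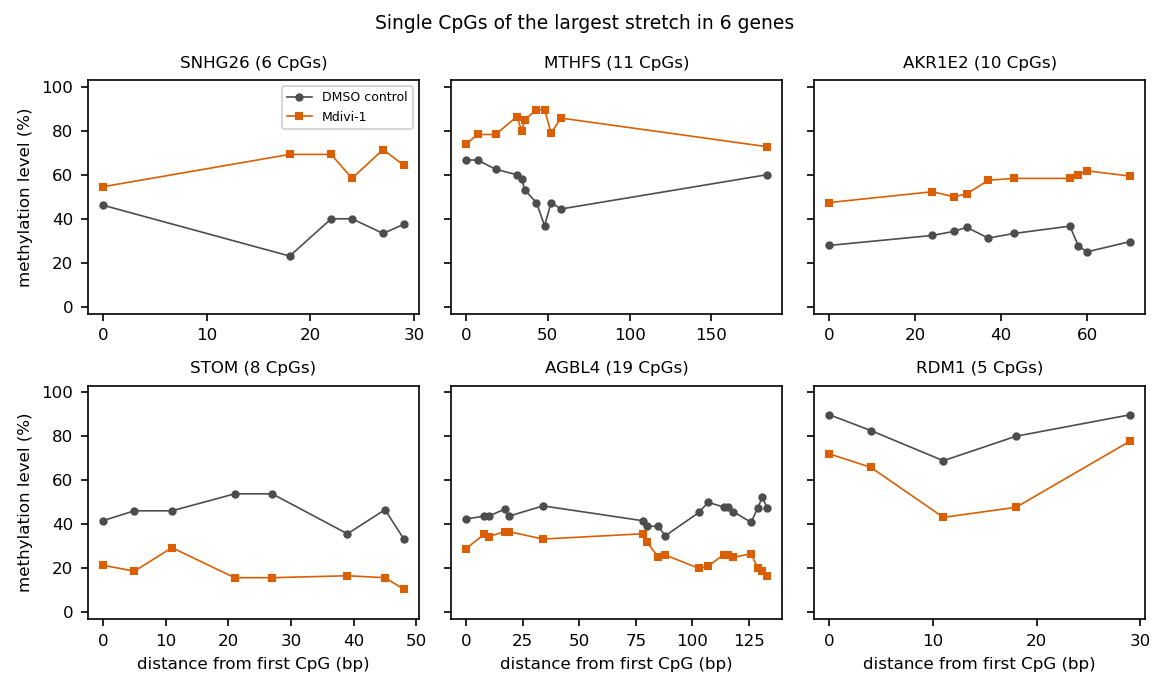
Methylation level (vertical axis, percent) of single CpGs by distance from the first CpG (horizontal axis, bp) in the largest stretch of SNHG26, MTHFS, AKR1E2, STOM, AGBL4 and RDM1, for the DMSO control (grey circles) and Mdivi-1 (orange squares), 1 library each. Mdivi-1 lies above the control at every CpG drawn in the upper row and below it at every CpG drawn in the lower row.

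Beside AKR1E2, RDM1 and LINC01122, the genes beyond that 95% interval were DAD1P1, SAMD7 and PHTF1, named here after their values were seen. The pseudogene DAD1P1 had 89.1% and 97.5% over 5 CpGs with means of 59.8 and 72.6 reads. SAMD7 had 35.6% and 48.5% over 5 CpGs and PHTF1 43.7% and 39.0% over 7. All CpGs of each of these genes differed in the same direction.

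The reads of each CpG were put to a two-sided Fisher exact test, with p adjusted by the Benjamini-Hochberg method over the whole table. None of the 79372 members passed at an adjusted p under 0.05 and 20 points, while 10 CpGs of the whole table were higher (0.000396%) and 6 lower (0.000238%). At an unadjusted p under 0.05, 1091 members were higher (1.37%) and 579 lower (0.729%), against 1.29% and 0.735% of the whole table. With 20 points or more besides, the shares were 0.556% and 0.369% of members and 0.501% and 0.342% of the whole table. Among the members of smallest p was a CpG at chr17:16757357 in the pseudogene COTL1P1, with a Fisher exact p of 1.89e-06 (adjusted 0.159). There 44 of 48 reads were methylated in the control (91.7%, exact 95% interval 80 to 97.7%) and 41 of 79 in Mdivi-1 (51.9%, 40.4 to 63.3%). These tests compare the reads of 2 libraries and not the treatments.

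The genes with the most member CpGs differed little between the libraries, with POLRMTP1 the exception. PEG13, an imprinted long noncoding RNA, held 230 CpGs at 66.5% and 67.4%, and KCNQ1OT1, the antisense RNA of an imprinted potassium channel gene, 165 at 49.0% and 50.6%. The pseudogenes FSCN1P1 (94.8% and 94.6% over 169 CpGs), LOC346329 (91.7% and 93.1% over 151) and LOC645433 (88.9% and 89.5% over 149) were nearly full. SSPO had 24.2% and 23.6% over 163 CpGs, LINC01391 29.3% and 29.8% over 150, and HS6ST1P1 71.7% and 73.1% over 148. The long noncoding RNA FLJ13224 was nearly bare at 1.45% and 1.27% over 163 CpGs.

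POLRMTP1, a pseudogene copy of the mitochondrial RNA polymerase gene at chr17:60215216-60217965, stood at 71.3% in the control and 77.8% in Mdivi-1 over 148 CpGs. The difference of 6.55 points had a shared-read error of 4.59 points, with 109 CpGs higher and 36 lower. In Fisher exact tests 13 of its 148 CpGs had an unadjusted p under 0.05. At that limit 1.37% of all members were higher and 0.729% lower. None of the 13 passed after adjustment, and neighbouring CpGs can share reads. The 8 CpGs around it were all higher, with 94.6% and 99.5%. Among shelves LINC02875 led with 129 CpGs in all (17.7% and 16.6%), and among shores LOC152594 with 117 (90.5% and 91.8%).

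Imprinted noncoding RNAs mostly had middle levels. Of 33 listed, 15 were measured, which for each list means at least 5 member CpGs. They include MCTS2P, which RefSeq lists as protein-coding. Of the 15, 11 lay between 20 and 80%, and none met the rule of size. The differences of the 15 had a median of 0.945 points, beside 0.309 for all genes. Among them 10 were higher and 5 lower, beside 57.5% higher over all genes. H19, the maternally expressed RNA next to IGF2, stood at 93.3% and 94.9%, and MEG3, from the chromosome 14 cluster, at 77.5% and 78.8%. With pooled reads the difference of MEG3 was -2.34 points. WT1-AS had 53.9% and 54.4%, and GNAS-AS1 76.6% and 76.1%. HYMAI, from the imprinted region on chromosome 6 tied to transient neonatal diabetes, had 55.1% and 43.7% over 30 CpGs, 22 of them lower. With 73.3% of its CpGs lower it missed the rule, and its shared-read error was 14.6 points on means of 17.2 and 15.2 reads.

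Noncoding RNAs of the HOX clusters, which lie between the homeobox genes that pattern the body axis, spanned the whole range. Of 20 listed, 12 were measured, including HOXA10-HOXA9, which RefSeq lists as protein-coding (7.25% and 4.10% over 5 CpGs). Of the 12, 5 were higher and 7 lower, beside 57.5% higher over all genes. Their median difference was -0.149 points, and none met the rule. HAGLR was nearly full at 91.1% and 91.2% over 66 CpGs, and HOXC13-AS had 14.5% and 13.6% over 44. HOTTIP, from the distal end of the HOXA cluster, had 56.4% and 56.2% over 104, HOXA-AS3 37.7% and 39.5%, and HOXB-AS3 16.7% and 15.4%. HOTAIRM1, at the other end of that cluster, had the largest difference, 46.1% and 39.2% over 18 CpGs with a shared-read error of 10.8 points.

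Long noncoding RNAs linked to neuroblastoma lay under 10% more often than not, but some were heavily methylated. Of 25 listed, 12 were measured. Of these, 7 lay under 10%, 2 between 20 and 80% and 3 over 80%. Among all genes 23.4% lay under 10%. The median control level was 4.55% and the median difference 0.622 points. None met the rule. HAND2-AS1 and GATA3-AS1, neighbours of transcription factor genes that mark sympathetic neurons, had 4.53% and 3.74% over 84 CpGs and 1.13% and 0.751% over 76. LINC00682 had 1.02% and 1.33% over 65 CpGs, and MIAT 1.75% and 2.33% over 27. MYCNOS, the antisense RNA of MYCN, had 4.57% and 5.94%. NBAT1 had 76.6% and 83.7% over 7 CpGs, with a shared-read error of 13.9 points. SILC1 had 91.9% and 92.6% over 18 CpGs, and LINC00460 86.2% and 89.4% over 10. RNA was not analysed here, so these levels say nothing of how much of each transcript was made, and the cell line's marker genes could not be checked by expression.

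**Figure D4:**
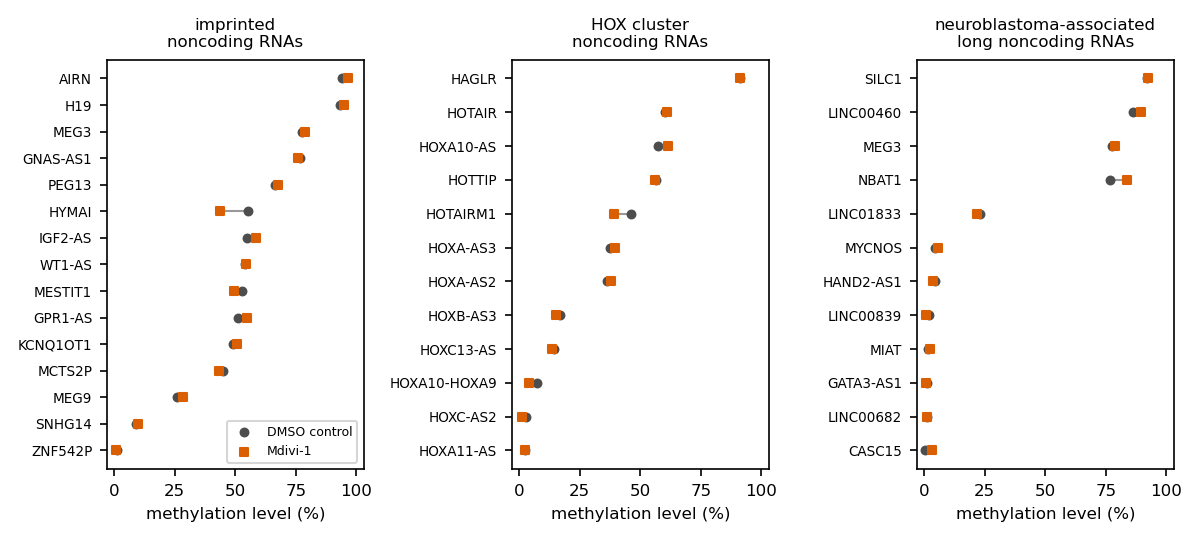
Mean methylation level (horizontal axis, percent) of each measured entry of the lists of imprinted, HOX cluster and neuroblastoma-associated noncoding RNAs. Values are of the DMSO control (grey circles) and Mdivi-1 (orange squares), 1 library each, ordered by the control. Most pairs overlap, with HYMAI, HOTAIRM1 and NBAT1 the widest apart in their panels.

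Of 51 neural long noncoding RNAs listed, 23 were measured, 12 of them between 20 and 80%. The 23 include TUNAR, which RefSeq lists as protein-coding. Among the 23, 13 were higher and 10 lower, beside 57.5% higher over all genes, with a median difference of 0.582 points. LINC01122 alone met the rule, which 0.885% of all genes met. NR2F1-AS1 had 57.3% and 58.6% over 113 CpGs, and -3.21 points with pooled reads. LINC00689 had 50.2% and 52.3%, LHX1-DT 23.3% and 20.9%, and NKX2-1-AS1 17.6% and 16.9%. PAX6-AS1, beside the eye and brain regulator PAX6, had 56.7% and 42.3% over 7 CpGs, of which only 3 were lower and 2 higher. Its shared-read error was 12.8 points, and with pooled reads the difference was -5.28 points.

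Host genes, which carry microRNAs or small nucleolar RNAs in their transcripts, held SNHG26 and MIR99AHG. Of 44 microRNA hosts listed, 15 were measured, 11 higher and 4 lower, with a median difference of 1.19 points, beside 57.5% higher and a median of 0.309 points over all genes. SNHG26 and MIR99AHG were the only measured hosts to meet the rule, which 0.885% of all genes met. MIR1915HG had 79.6% and 80.8% over 104 CpGs, but with pooled reads its difference was -3.89 points. MIR9-3HG had 89.6% in both libraries over 73, and MIR124-2HG 34.1% and 35.6%. MIR4435-2HG had 79.3% and 76.7%, and MIR100HG 4.74% and 3.37%. Of 31 small nucleolar RNA hosts listed, 6 were measured, 5 higher and 1 lower, and 4 of the 6 were under 10%. SNHG21 had 0.638% and 1.09%, SNHG4 1.23% and 1.40%, SNHG30 2.41% and 0.859%, SNHG6 4.31% and 6.71%, and SNHG3 37% and 40.7%.

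Of 42 abundant nuclear and widely expressed RNAs listed, 16 were measured, 8 of them under 10%, and none met the rule. They split evenly, 8 higher and 8 lower, with a median difference of 0.089 points. MALAT1, a nuclear RNA involved in splicing bodies, had 1.17% and 1.07% over 42 CpGs. NEAT1, the scaffold of paraspeckles, had 30.3% and 29.7% over 107, and EBLN3P 1.08% and 1.49% over 49. Of 43 subtelomeric transcripts listed only 3 were measured: FAM87A (44.6% and 47.7%), LINC01128 (69.8% and 70.4%) and FAM87B (91.6% and 93.9%). All 3 were higher, as were 57.5% of all genes.

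Transfer RNA genes, transcribed by RNA polymerase III from signals inside the gene, lay under 10% more often than not. Of 82 entries with any member CpG, 29 held 5 or more, 17 of them on chromosome 6. Of the 29, 17 lay under 10%, 5 over 80% and 7 between. The share under 10% was 58.6%, against 23.4% of all genes, and the share at 90% or more 10.3%, against 21.8%. TRW-CCA5-1 had 96.0% and 92.1%, while TRT-CGT4-1 had 0.628% and 0.803% over 11 CpGs. The differences ran from -4.91 points in TRS-GCT1-1 to 17.3 points in TRS-GCT6-1, the only tRNA gene to meet the rule, with a median of -0.212 points. Of 151 microRNA entries with any member CpG, 13 held 5 or more, and these lay under 10% in 7 cases and over 80% in 5. MIR663A alone was between, at 50.4% and 45.4% over 16 CpGs, with a shared-read error of 12.2 points. Over all 328 microRNA CpGs the control mean was 54.1%, while the median control level of the 13 genes was 6%.

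**Figure D5:**
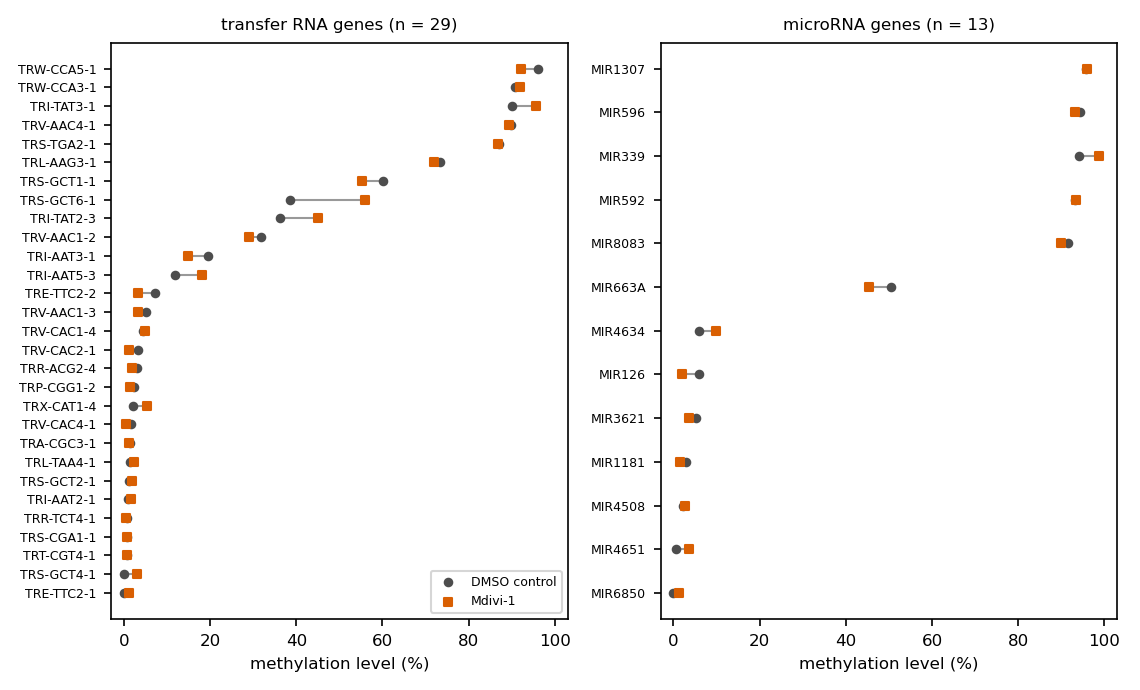
Mean methylation level (horizontal axis, percent) of each of 29 tRNA genes and 13 microRNA genes with 5 or more member CpGs in the DMSO control (grey circles) and Mdivi-1 (orange squares), 1 library each, ordered by the control. Most genes sit near either end of the scale, and TRS-GCT6-1 has the widest gap.

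Among other small RNAs, TERC, the RNA template of telomerase, had 40.6% and 37.5% over 40 CpGs, 20 of them higher and 20 lower. Averaging reads in place of CpGs turned its difference from -3.12 to 1.82 points. The vault RNA gene VTRNA2-1, known for methylation that depends on the parent of origin, stood at 67.0% and 67.8% over 7 CpGs.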

How the data were processed

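Genomic DNA of SH-SY5Y cells was captured with a SureSelectXT Methyl-Seq kit, treated with bisulfite and sequenced, per the labels' protocols. Reads were aligned with BSMAP to hg19, per the submitters' processing notes. The methylation caller, filters and scaling are not given in the sources used here. The table deposited by the authors has 2773807 positions, each with a methylated fraction a library, their difference, and a coverage, taken as an expected count of reads. Control fractions were whole reads at the deposited coverage for only 33.3% of positions (tolerance 1e-06), but at all of them after scaling coverage by 1.23 (the Mdivi-1 median over the control median) and rounding. This is read from the values. Methylated reads were recovered by inverting it, with the ratio held to 3 decimals. The 10795 positions (0.389%) of fractional coverage or with no single count were left out rather than rounded. They were 1.63% of the members by the rule, against 0.323% of all autosomal positions of that depth.

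Members had 10 reads in both libraries, and genes 5 CpGs. Members numbered 76147 on the minus and 3225 on the plus strand, and 2350 CpGs were measured on both. Levels are means over CpGs. The independent error sums binomial variances. The shared-read error treats each run of CpGs with gaps of up to 150 bp as read by the same molecules, however long the run. In MIR1915HG, for example, 1 run spans 1694 bp. Bisulfite reads without molecular identifiers are not independent molecules, so intervals cover counting error only. Classes came from RefSeq, where 3469 entries matched by symbol, 256 by gene ID and 133 by synonym, 89 named several genes and 9 had no match. Fisher exact tests ran over all positions with Benjamini-Hochberg adjustment. Named were the 10 largest gains and 10 largest losses by the rule of size, the 10 genes with most CpGs, the leading gene of each CpG island class, and up to 5 measured members a list with most CpGs. Other genes were named after their values were seen. The members and lists were chosen with earlier results of these data known. Fisher exact tests were computed with Numba 0.67.0 and exact binomial intervals with SciPy 1.17.1. Tables were made with pandas 2.3.3 and NumPy 2.4.6 under Python 3.11.15, and figures with Matplotlib 3.10.9. Recovery, tests and rule were run on simulated data as a check of the code. The simulated fractions were made with the same inferred scaling, so they cannot show that the submitters scaled so. The simulated reads were drawn independently for each CpG, so shared reads were not covered. Alternatives in depth, weighting, deposited fractions, fractional coverage, chromosomes and rule settings were run. The single CpG of smallest p is not reported here. RNA-seq was not analysed here.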

Additional observations from a re-analysis of the deposited data

How the results depend on the processing

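The counts of genes by the rule of size depended on its settings. They were 12 higher and 3 lower at 30 reads, 8 and 4 with 10 CpGs a gene, 117 and 55 at 5 points, and 4 and 1 at 20 points. Without the condition on the share of CpGs 30 genes were higher and 20 lower, and with protein-coding loci left out, an alternative chosen after seeing the data, 18 and 6. At 20 reads 28 genes met the rule, 15 of them shared with the 35, of which only 18 still had 5 CpGs. Without adjustment, Fisher exact tests gave 441 member CpGs higher and 293 lower by 20 points or more. The entry of CDH18-AS1 and NUP50P3 left the rule with the deposited fractions, at 14.2 points, and LOC100130207 at 30 reads, at -12.9 points. Of the 20 genes named for a gain or loss, none turned under any setting where it kept 5 CpGs, but only 8 did at 20 reads and 4 at 30. Of 44 other named genes, 14 turned with pooled reads and 6 at 20 reads. The mean over CpG island members was 0.036 points with pooled reads, against 0.358. No paired analysis was possible because each group had 1 library. Depth left the median gene at 20 to 80% a shared-read error of 8.29 points, which holds counting error only.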

Other observations

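Copies of the same tRNA family did not always have the same level. TRV-AAC1-2 and TRV-AAC1-3, valine tRNA genes on chromosome 5, stood at 31.9% and 5.23% in the control and 29.0% and 3.39% in Mdivi-1, each over 7 CpGs with means of 18.7 and 43.4 control reads. No source used here gives how reads of near-identical copies were placed, and this pair was chosen after its values were seen.

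Small nucleolar RNA genes lay near either end of the scale, with SNORA60 at 94.0% and 94.7%, SNORD15B at 87.9% and 90.1%, and SNORD147 at 2.86% and 3.61%. The vault RNA gene VTRNA1-1 had 93.0% and 90.4% over 6 CpGs.

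HCG9, a long noncoding RNA of the major histocompatibility region, met the rule of size at 64.7% and 78.0% over 12 CpGs. Its CpG at chr6:29943149 had 1 of 18 reads methylated in the control (5.56%, exact 95% interval 0.141 to 27.3%) and 18 of 25 in Mdivi-1 (72.0%, 50.6 to 87.9%), with an unadjusted Fisher exact p of 1.15e-05 and an adjusted p of 0.71. Over its 5 CpGs with 20 reads in both libraries the difference was 8.74 points.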
